A study of Mus musculus with 5 samples.

Results

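The mRNA levels of the solute carriers (SLC), the transporters that move nutrients, ions and metabolites across membranes, were compared between lung cancer-associated fibroblasts (CAFs) with and without overexpression of miR-200. The members were all protein-coding mouse genes with a symbol of the form *Slc* followed by a number and a mean of at least 2 CPM, the normalized unit of the table, over all 5 samples, which gave 165 of the 371 such genes in the table of 21835 genes. Of the other genes, 75 were listed at 0 in all 5 samples and 131 lay between 0 and 2 CPM. Membership rested on the level over all samples, and the rule did not use the difference between the groups. An exception was *Slc4a4*, the only member under 2 CPM in one of the groups, which is a member only through CAF-200. The set itself was chosen with earlier results of these data known. The nearest members above the threshold were *Slc27a1*, with a mean of 2.004 CPM, and *Slc4a4*, with 2.33 CPM. The nearest genes below it were *Slc43a2*, with 1.996 CPM, and *Slc14a1*, with 1.92 CPM.

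The cells were murine lung CAFs of a line called CAF in the labels. CAF-vec (2 samples) were the cells labelled WT control, which per the study's methods carry the empty lentiviral vector, and CAF-200 (3 samples) overexpressed the clustered miR-200b, miR-200a and miR-429 from the lentiviral vector pLVX-Neo. The labels describe G418 selection of infected CAFs, alpha-MEM with serum for culture, and stranded mRNA libraries read as 2 × 100 bases, and they name no clone, animal or separate culture, so the *p* values measure only the spread between these samples, which may be technical. The values are CPM as normalized by the authors, the depth of each sample is unknown, and with 2 samples against 3 an exact permutation test of a single gene cannot go below a two-sided *p* of 0.2.

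Solute carriers are grouped into families numbered by sequence, and most families carry one class of substrate, such as amino acids (Slc1, Slc6, Slc7, Slc38), bicarbonate and chloride (Slc4, Slc12), zinc (Slc30 out of the cytosol, Slc39 into it) or metabolites across the inner mitochondrial membrane (Slc25). Fibroblasts use them to take up amino acids and glucose, to export acid, and to supply the Golgi with nucleotide sugars for the glycans of secreted matrix. The miR-200 family pairs by its seed, bases 2 to 8, with sites in 3′-UTRs, which can lower the level of the target mRNA.

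The mature miRNAs of the overexpressed cluster, from RefSeq (GRCm38.p6, chromosome 4, minus strand), are shown because their seeds, in capitals, set which 3′-UTR heptamers were searched. miR-200b and miR-429 share a seed, and the seed of miR-200a differs from it.
miR-200b-3p: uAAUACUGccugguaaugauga
miR-200a-3p: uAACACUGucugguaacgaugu
miR-429-3p: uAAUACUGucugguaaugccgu
The heptamers opposite these seeds are CAGTATT for miR-200b and miR-429 and CAGTGTT for miR-200a. A match to at least 1 of them stood in the longest annotated 3′-UTR of 48 of the 164 members with such a UTR (29.3%), beside 30.3% of the 12060 genes tested that have one, so members held matches about as often as all genes. The median log2 fold-change was -0.18 for members with a match and -0.17 for members without, and -0.07 and -0.11 for all genes. UTRs with a match were longer, with medians of 2776 bases against 1117 bases among the members. The table has no row for the miR-200 transcripts, so the overexpression itself was not measured here. *Zeb1*, a well-known miR-200 target, was 43.5 and 50.7 CPM in CAF-vec and 37.8, 37.5 and 34.1 CPM in CAF-200, and the groups did not overlap (limma, log2 fold-change -0.36, adjusted *p* = 0.0504).

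The cells carried the markers of fibroblasts. All 10 fibroblast markers (*S100a4*, *Col1a1*, *Dcn*, *Pdgfrb*, *Col3a1*, *Vim*, *Pdgfra*, *Col1a2*, *Thy1*, *Lum*) were at 2 CPM or more, and they summed to 13400 to 17200 CPM for CAF-vec and 10800 to 11700 CPM for CAF-200. They did not move together. *Dcn* was 7.67 and 8.18 CPM in CAF-vec and 51.0, 61.5 and 56.7 CPM in CAF-200 and *Lum* 3.24 and 4.02 CPM in CAF-vec and 26.5, 32.3 and 27.1 CPM in CAF-200, while *Col3a1* and *Thy1* also had all CAF-200 values above both controls. For *Col1a1*, *Col1a2* and *Pdgfrb* all CAF-200 values lay below both controls. None of 7 epithelial and none of 5 endothelial markers reached 2 CPM, with sums of at most 0.452 and 1.06 CPM and *Sftpc*, *Krt18* and *Cldn5* at 0. Of 6 leukocyte markers only *Cd68* did (sum 2.25 to 5.10 CPM for CAF-vec and 2.44 to 3.60 CPM for CAF-200, with *Adgre1* and *Cd3e* among those at 0). Of 4 mesothelial markers only *Msln* did, with a sum of 5.92 to 6.98 CPM for CAF-vec and 1.11 to 1.62 CPM for CAF-200 and *Lrrn4* at 0. Of 5 pericyte and smooth muscle markers, *Cspg4* and *Notch3* did. All 5 together summed to 8.63 to 11.9 CPM for CAF-vec and 7.54 to 7.97 CPM for CAF-200. *Msln* and some of the fibroblast markers move with the groups, and their part in the results below was not tested. In such bulk samples, fewer cells of a type and less RNA per cell cannot be told apart.

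Transcripts of the 165 members took up 8488 and 7575 CPM in CAF-vec and 7044, 6853 and 6914 CPM in CAF-200, so all CAF-200 sums lay below both CAF-vec sums. The median member was at 21.0 CPM, 101 members lay between 10 and 100 CPM and 17 above that. The most abundant were mitochondrial carriers. *Slc25a3*, the phosphate carrier that supplies ATP synthase, was 1420.2 and 914 CPM in CAF-vec and 819, 716 and 755 CPM in CAF-200. *Slc25a4* and *Slc25a5*, which exchange ADP for ATP across the inner mitochondrial membrane, followed with means over all samples of 483 and 508 CPM. Outside the mitochondria, the highest means were those of *Slc38a2*, a sodium-coupled neutral amino acid transporter (289 CPM), *Slc39a7*, which releases zinc from the endoplasmic reticulum (167 CPM), and *Slc3a2*, the heavy chain that brings several amino acid exchangers to the plasma membrane (163 CPM). Per kilobase of exon, the top member of each substrate group was *Slc25a5* (309 CPM per kb), *Slc39a7* (64.4), *Slc35b1* (49.9), *Slc3a2* (46.1), *Slc50a1* (33.2), *Slc12a4* (25.2), *Slc29a1* (17.8), *Slc16a13* (9.95) and *Slc10a3* (7.76).

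Most solute carriers differed little between CAF-vec and CAF-200, and those that passed the test were mostly lower in CAF-200. The thresholds were 0.01 for the adjusted *p* and a log2 fold-change beyond 1, on the log2(CPM + 0.5) scale, which understates the change of low genes. By both thresholds 5 members were lower (3.03%, beside 2.35% of all 12175 genes tested) and 1 was higher (0.606%, beside 2.37%). By the adjusted *p* alone 15 were lower (9.09%, beside 5.57%) and 2 higher (1.21%, beside 4.45%). Without regard to the test, 111 of 165 members had a log2 fold-change below 0 (67.3%, beside 58.3% of all genes). The groups did not overlap in 107 members (64.8%, beside 61.6%), 77 of them with lower CAF-200 values (46.7%, beside 37.3%) and 30 with higher ones (18.2%, beside 24.3%). The median log2 fold-change was -0.17 for the members and -0.09 for all genes, and with each sample centred on its median these were -0.07 and 0.00. Centring gave 13 lower and 6 higher at the adjusted *p*, and quantile normalization 12 and 5, in place of 15 and 2.

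The calls depend on which samples enter. Without any single CAF-200 sample, leaving 2 against 2, 0 members were lower or higher at the adjusted *p* (limma), while 41 to 44 were lower and 12 to 15 higher at an unadjusted *p* under 0.05. Without CAF-vec 1 there were 43 lower and 14 higher, and without CAF-vec 2 there were 51 and 23. In these fits the lone CAF-vec sample is assumed to vary like the CAF-200 samples. The 15 and the 2 members were kept in both of these fits.

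**Figure D1:**
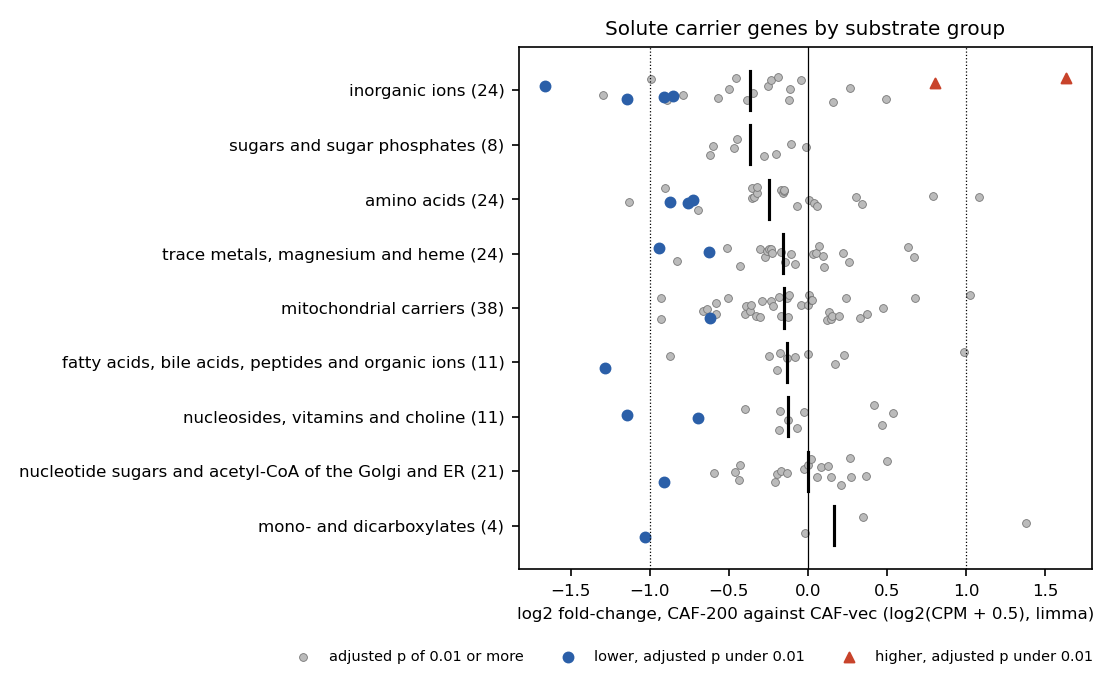
Log2 fold-change (CAF-200 against CAF-vec, log2(CPM + 0.5), horizontal axis) of the 165 members in 9 substrate groups, with 1 point per gene, blue points and red triangles for lower and higher members at an adjusted *p* under 0.01, a black bar at each group's median and dotted lines at -1 and 1. All 8 members of the sugar families lie below 0 (*Slc2a1* above it with centring or quantile normalization), the nucleotide sugar group is spread around 0, and both higher members are in the inorganic ion group.

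The 5 lower members belonged to 5 families. *Slc9a3r1* encodes NHERF1, a scaffold that tethers membrane proteins to the cytoskeleton and is itself no carrier. It was 44.5 and 27.2 CPM in CAF-vec and 11.98, 10.2 and 9.89 CPM in CAF-200, so that even the lower control was 2.27 times the highest CAF-200 sample (limma, log2 fold-change -1.66, standard error 0.220, adjusted *p* = 0.00625). *Slc22a17*, a receptor for lipocalin 2, was 8.58 and 6.70 CPM in CAF-vec and 2.81, 2.94 and 2.72 CPM in CAF-200 (limma, log2 fold-change -1.28, standard error 0.138, adjusted *p* = 0.00395). The 3 CAF-200 samples lay within a narrow band well below both controls.

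*Slc4a3*, an anion exchanger that swaps chloride for bicarbonate, was 45.4 and 32.5 CPM in CAF-vec and 17.1, 17.3 and 16.9 CPM in CAF-200 (limma, log2 fold-change -1.15, standard error 0.152, adjusted *p* = 0.00625). *Slc46a3*, a lysosomal transporter, was 4.81 and 6.70 CPM in CAF-vec and 2.43, 2.45 and 2.03 CPM in CAF-200 (limma, log2 fold-change -1.15, standard error 0.173, adjusted *p* = 0.00852). *Slc16a10*, which carries aromatic amino acids and thyroid hormones, was 9.41 and 8.16 CPM in CAF-vec and 3.97, 3.91 and 4.23 CPM in CAF-200 (limma, log2 fold-change -1.03, standard error 0.114, adjusted *p* = 0.00416). In all 3 genes the groups did not overlap, and the controls differed from each other more than the CAF-200 samples did. *Slc4a3* is higher in CAF-vec 1, *Slc46a3* in CAF-vec 2. At the adjusted *p*, *Slc9a3r1*, *Slc4a3* and *Slc46a3* did not pass without the filter on low values, nor did *Slc46a3* with centring. None of the 5 held a seed match in its longest 3′-UTR.

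The only member called higher was *Slc4a4*, the sodium-bicarbonate cotransporter NBCe1, which brings base into the cell. It was 0.661 and 0.849 CPM in CAF-vec and 3.67, 3.15 and 3.34 CPM in CAF-200 (limma, log2 fold-change 1.63, standard error 0.141, adjusted *p* = 0.00284), and the lowest CAF-200 sample was 3.71 times the higher control. It is a member only through its CAF-200 values, so its rise is not independent of the choice, and with a threshold of 2 CPM in each group no member was called higher. Its longest 3′-UTR holds 1 match to miR-200b and miR-429, shown in capitals with its neighbouring bases (GENCODE M21, GRCm38, chr5:89236756-89236762, plus strand).
Slc4a4 3′-UTR site: gacatcctatgCAGTATTgttagggattt

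**Figure D2:**
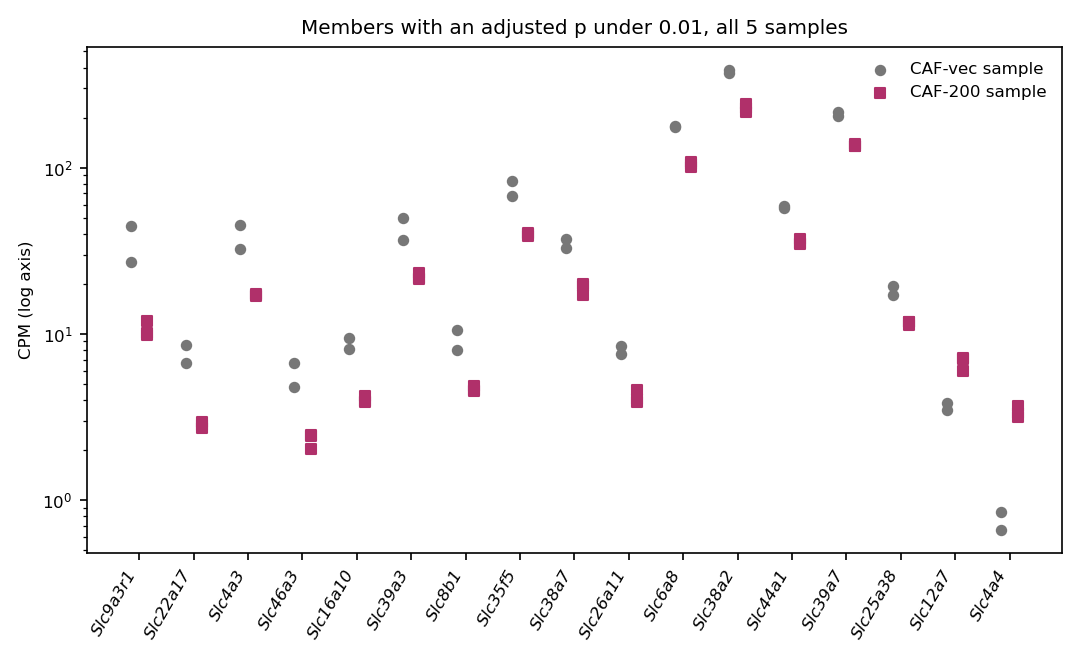
CPM (log axis) of the 17 members with an adjusted *p* under 0.01 in each of the 5 samples, with grey circles for CAF-vec and red squares for CAF-200, ordered by log2 fold-change. The groups do not overlap in any of them, with CAF-200 below CAF-vec in 15 and above it in *Slc12a7* and *Slc4a4*.

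The amino acid families had 24 members, including *Slc7a6os*, which is no carrier and had a log2 fold-change of -0.15. Of the 24, 17 had a log2 fold-change below 0 (70.8%, beside 58.3% of all genes), and 3 passed at the adjusted *p*, all lower (12.5%, beside 5.57%). The median was -0.25, and -0.15 with centring. The genes named by the adjusted *p* alone, here and below, were chosen after their values were seen. Of these, *Slc39a3*, *Slc8b1*, *Slc26a11* and *Slc12a7* did not pass without the filter on low values, *Slc38a2* and *Slc8b1* with quantile normalization, and *Slc39a3* without the variance trend. *Slc38a2* fell by 0.73 on the log2 scale, from 371 and 387 CPM in CAF-vec to 229, 240.4 and 216 CPM in CAF-200 (adjusted *p* = 0.00604, limma), and the groups did not overlap. Of the 15 lower members of all groups, 1 held a seed match in its longest 3′-UTR (6.67%, beside 30.3% of all genes), and 2 did with any annotated 3′-UTR of the gene (13.3%, beside 31.7%). *Slc6a8*, the creatine transporter, was 179 and 176 CPM in CAF-vec and 105, 109 and 100.4 CPM in CAF-200 (limma, log2 fold-change -0.76, adjusted *p* = 0.00417). *Slc38a7*, a glutamine transporter, was 32.8 and 37.1 CPM in CAF-vec and 19.9, 19.5 and 17.1 CPM in CAF-200 (limma, log2 fold-change -0.87, adjusted *p* = 0.00570). All 6 Slc6 members, carriers of neurotransmitters, creatine, taurine and betaine, had a log2 fold-change below 0 (beside 58.3% of all genes), although only *Slc6a8* passed and *Slc6a6* was at 0.03 with centring or quantile normalization. The neutral amino acid exchange system gave other values. *Slc7a5*, its light chain LAT1, was 33.6 and 34.1 CPM in CAF-vec and 43.4, 39.0 and 47.4 CPM in CAF-200 (limma, log2 fold-change 0.34, 95% interval 0.08 to 0.61, adjusted *p* = 0.0590), its heavy chain *Slc3a2* had -0.16 (95% interval -0.48 to 0.16), and the glutamine transporter *Slc1a5* 0.06 (95% interval -0.17 to 0.29). The taurine transporter *Slc6a6* had -0.07 (95% interval -0.31 to 0.17). The highest of the 24 were *Slc43a3* (limma, log2 fold-change 1.08, adjusted *p* = 0.0195) and *Slc7a6* (limma, log2 fold-change 0.79, adjusted *p* = 0.0240). In both the groups did not overlap, and neither passed. *Slc7a11*, the cystine importer, was below the level for membership at 0.889 and 0.497 CPM in CAF-vec and 0.852, 0.736 and 1.11 CPM in CAF-200, which overlapped.

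The 24 members of the inorganic ion families included *Slc9a3r1*, *Slc9a3r2* and *Slc4a1ap*, which are no carriers and were all below 0. Of the 24, 19 had a log2 fold-change below 0 (79.2%, beside 58.3% of all genes), and at the adjusted *p* 4 fell (16.7%, beside 5.57%) and 2 rose (8.33%, beside 4.45%). The median was -0.37. Beside *Slc9a3r1* and *Slc4a3*, the lower ones were *Slc8b1*, the mitochondrial sodium-calcium exchanger, at 10.6 and 8.04 CPM in CAF-vec and 4.59, 4.55 and 4.89 CPM in CAF-200 (log2 fold-change -0.91), and *Slc26a11*, a sulfate transporter, at 8.40 and 7.52 CPM in CAF-vec and 4.62, 4.03 and 3.89 CPM in CAF-200 (log2 fold-change -0.86). *Slc12a7*, a potassium-chloride cotransporter, rose with 3.83 and 3.48 CPM in CAF-vec and 5.98, 7.11 and 7.195 CPM in CAF-200 (limma, log2 fold-change 0.80, adjusted *p* = 0.00939). Its relative *Slc12a4*, which was 128 and 120.0 CPM in CAF-vec and 98.9, 97.3 and 95.6 CPM in CAF-200, did not pass (limma, log2 fold-change -0.35, adjusted *p* = 0.0275). The ratio of *Slc12a7* to *Slc12a4*, a pair chosen after the values were seen, was 0.0299 and 0.0290 in CAF-vec and 0.0605, 0.0730 and 0.0753 in CAF-200 (exact permutation *p* = 0.2, the smallest possible).

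Of the 6 members with Slc4 symbols, most of them bicarbonate transporters, 5 had a log2 fold-change below 0 and *Slc4a4* was above it. *Slc4a2*, the widely expressed chloride-bicarbonate exchanger, was 142 and 71.9 CPM in CAF-vec and 43.7, 39.9 and 39.1 CPM in CAF-200 (limma, log2 fold-change -1.30, adjusted *p* = 0.0207). It did not pass the adjusted *p*, and CAF-vec 1 was 1.98 times CAF-vec 2, while the CAF-200 samples stayed together below them. The gene overlaps *Fastk* on the other strand, and whether the counting used strand is not given in the sources used here. The ratio of *Slc4a4* to *Slc4a2* was 0.00465 and 0.0118 in CAF-vec and 0.0839, 0.0789 and 0.0854 in CAF-200. This pair was chosen after the values were seen and *Slc4a4* is a member only through CAF-200, so the ratio is a description. The sodium-potassium-chloride cotransporter *Slc12a2* was 23.4 and 23.2 CPM in CAF-vec and 19.7, 18.8 and 20.03 CPM in CAF-200. It did not pass (log2 fold-change -0.25), nor did the phosphate transporter *Slc20a1* (0.27, 95% interval -0.15 to 0.69).

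The Slc25 carriers were the largest family, with 38 members, 24 below 0 (63.2%, beside 58.3% of all genes) and 1 lower at the adjusted *p* (2.63%, beside 5.57%). That one was *Slc25a38*, which brings glycine into mitochondria for heme synthesis, at 19.5 and 17.0 CPM in CAF-vec and 11.8, 11.4 and 11.9 CPM in CAF-200 (limma, log2 fold-change -0.62, adjusted *p* = 0.00959). It did not pass without the filter on low values, with quantile normalization, with centring or without the variance trend. *Slc25a1*, the citrate carrier, was 186 and 121 CPM in CAF-vec and 84.1, 78.7 and 72.7 CPM in CAF-200 (limma, log2 fold-change -0.93, adjusted *p* = 0.0189) and *Slc25a3* was at -0.58 without passing (adjusted *p* = 0.0815, limma). The 2 ADP/ATP carriers lay on opposite sides. *Slc25a4* was 678 and 460.1 CPM in CAF-vec and 443, 432 and 403 CPM in CAF-200 (limma, log2 fold-change -0.39, adjusted *p* = 0.146), while *Slc25a5* was 246 and 393 CPM in CAF-vec and 634, 631 and 638 CPM in CAF-200 (limma, log2 fold-change 1.03, adjusted *p* = 0.0168). The ratio of *Slc25a5* to *Slc25a4*, chosen after the values were seen, was 0.363 and 0.855 in CAF-vec and 1.43, 1.46 and 1.58 in CAF-200, so the order of the pair differed between the groups (exact permutation *p* = 0.2). These are near paralogues between which reads could be split, and the 2 control samples differ more than 2-fold in the ratio, while neither gene passed at the adjusted *p*.

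**Figure D3:**
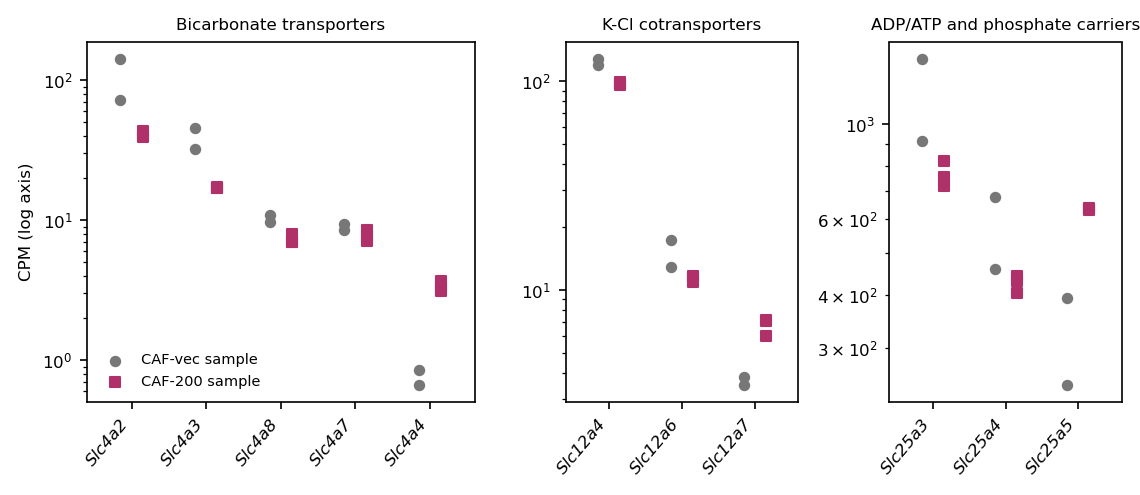
CPM (log axis) in each sample of bicarbonate transporters (left), potassium-chloride cotransporters (middle) and the ADP/ATP and phosphate carriers (right), with grey circles for CAF-vec and red squares for CAF-200. *Slc4a4*, *Slc12a7* and *Slc25a5* have all CAF-200 values above both CAF-vec values, while those of *Slc4a2*, *Slc12a4* and *Slc25a4* lie below both.

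The zinc transporters belong to families of opposite direction. Of 10 Slc39 members, which bring zinc into the cytosol, 9 had a log2 fold-change below 0 (90%, beside 58.3% of all genes) and 2 passed at the adjusted *p*, both lower (20%, beside 5.57%). Of 6 Slc30 members, which remove it, 3 were below 0 (50%) and none passed. The difference between the families was not tested. *Slc39a3*, a plasma membrane importer, was 49.9 and 36.7 CPM in CAF-vec and 23.2, 21.3 and 21.7 CPM in CAF-200 (limma, log2 fold-change -0.94, adjusted *p* = 0.00888) and *Slc39a7* was 217 and 205 CPM in CAF-vec and 135, 135 and 139.7 CPM in CAF-200 (limma, log2 fold-change -0.62, adjusted *p* = 0.00659), and in each the groups did not overlap. Reads of *Slc39a7* may be shared with an overlapping transcript on the same strand, *Gm20427*. *Slc39a14*, which also carries iron, had -0.43 (adjusted *p* = 0.0255, limma), and the zinc exporter *Slc30a1*, which is induced by zinc, was 7.12 and 5.84 CPM in CAF-vec and 8.07, 7.37 and 7.38 CPM in CAF-200 (log2 fold-change 0.22). The iron exporter *Slc40a1* was 11.4 and 8.82 CPM in CAF-vec and 7.24, 6.50 and 6.88 CPM in CAF-200 (limma, log2 fold-change -0.51, adjusted *p* = 0.0384) and the iron importer *Slc11a2* had 0.05 (95% interval -0.30 to 0.40).

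**Figure D4:**
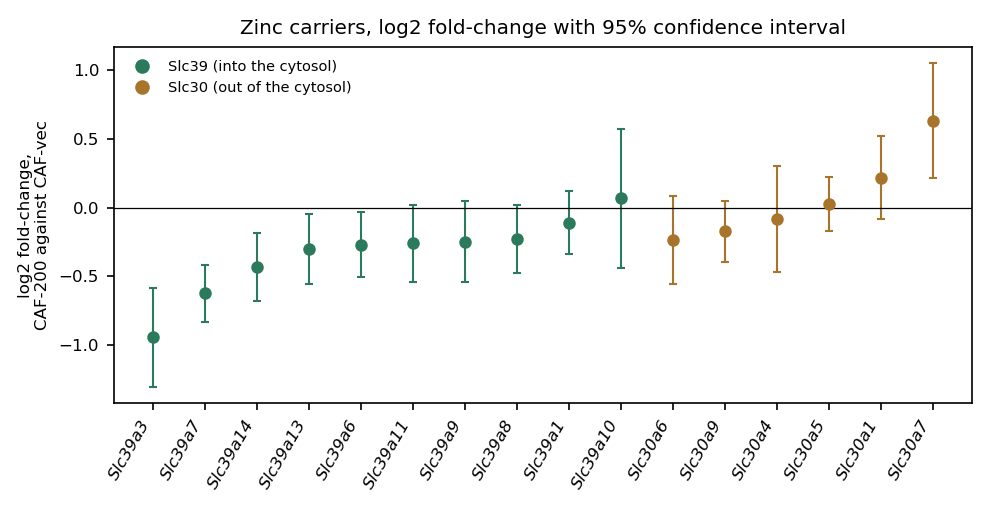
Log2 fold-change (CAF-200 against CAF-vec, log2(CPM + 0.5), vertical axis) of the Slc39 (green) and Slc30 (brown) members, with bars for the 95% confidence interval. In Slc39, 9 of 10 members lie below 0, with *Slc39a3* and *Slc39a7* lowest, and in Slc30, 3 of 6 do.

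The sugar families had few members and no call. All 8 had a log2 fold-change below 0 (beside 58.3% of all genes), except that *Slc2a1* was at 0.08 with centring or quantile normalization, and 0 passed. The median was -0.37, and the groups did not overlap in 5 (62.5%, beside 61.6% of all genes). The lowest was *Slc5a6*, which belongs to a sugar family by symbol and carries vitamins (-0.62). *Slc2a1*, the glucose transporter GLUT1, was 36.7 and 38.4 CPM in CAF-vec and 37.0, 35.7 and 39.0 CPM in CAF-200 (log2 fold-change -0.01, 95% interval -0.23 to 0.20). *Slc5a3*, the inositol transporter, was 4.36 and 4.62 CPM in CAF-vec and 2.89, 2.50 and 2.99 CPM in CAF-200 (limma, log2 fold-change -0.60, adjusted *p* = 0.0189), and its reads may be shared with *Mrps6* on the same strand. The 21 members of Slc33 and Slc35 were grouped by symbol as transporters of nucleotide sugars and acetyl-CoA in the Golgi and endoplasmic reticulum. The substrate of each was not checked. Of the 21, 11 were below 0 (52.4%) and the median was at 0.00. It was 0.10 with centring, -0.11 without CAF-vec 1 and -0.05 without CAF-vec 2. Here *Slc35f5* passed, at 83.1 and 67.8 CPM in CAF-vec and 38.9, 40.0 and 40.2 CPM in CAF-200 (limma, log2 fold-change -0.91, adjusted *p* = 0.00522).

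Among the 4 members of Slc16, the family of the monocarboxylate carriers, the only one called was *Slc16a10*, which as said carries other substrates. Thus 1 of 4 was lower past both thresholds, beside 2.35% of all genes. *Slc16a1*, the lactate transporter MCT1, was 12.4 and 11.2 CPM in CAF-vec and 14.7, 13.8 and 17.0 CPM in CAF-200 (limma, log2 fold-change 0.35, adjusted *p* = 0.0797). Its 3′-UTR held 4 seed matches, 2 for miR-200b and miR-429 and 2 for miR-200a, and its CAF-200 values lay above both controls without passing the test. Of the 5 members with 4 or more matches, the others had log2 fold-changes of -0.60 (*Slc5a3*, 4 matches), -0.18 (*Slc23a2*, 5), -0.18 (*Slc25a36*, 4) and -0.08 (*Slc30a4*, 5), and none passed. The sites of *Slc16a1* are printed as an example of a UTR with both heptamers (chromosome 3, plus strand, GRCm38, first base of the match at 104656528, 104656849, 104657066 and 104657948, matches in capitals).
Slc16a1 site 1: tttaatgtatgCAGTATTtcaagcagcag
Slc16a1 site 2: acattgtttttCAGTATTtgcaaaaccac
Slc16a1 site 3: gattggaactaCAGTGTTttgggtttttt
Slc16a1 site 4: ttacataaggtCAGTGTTagtgaagcctg
The lactate exporter *Slc16a3* (MCT4) had 0 in each control and 0.161, 0.163 and 0.321 CPM in CAF-200, below the level required for testing. *Slc16a11* was 10.6 and 4.80 CPM in CAF-vec and 21.9, 17.2 and 19.4 CPM in CAF-200 (limma, log2 fold-change 1.38, adjusted *p* = 0.0244), and its 2 control samples differed more than 2-fold.

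Of 11 carriers of nucleosides, vitamins and choline, 8 were below 0 (72.7%, beside 58.3% of all genes) and 2 fell at the adjusted *p* (18.2%, beside 5.57%). Their median was -0.12, and it was -0.24 without CAF-vec 1 and 0.05 without CAF-vec 2. *Slc44a1*, a choline transporter, was 58.7 and 56.9 CPM in CAF-vec and 34.5, 37.1 and 35.1 CPM in CAF-200 (limma, log2 fold-change -0.69, adjusted *p* = 0.00501). *Slc29a1*, the equilibrative nucleoside transporter ENT1, was 54.0 and 61.9 CPM in CAF-vec and 80.1, 77.3 and 82.8 CPM in CAF-200 (limma, log2 fold-change 0.47, adjusted *p* = 0.0188), and the folate carrier *Slc19a1* had -0.18 (95% interval -0.52 to 0.16). Among the 11 carriers of fatty acids, bile acids, peptides and organic ions, 7 were below 0 (63.6%, beside 58.3% of all genes). *Slc22a17* was the only one past the adjusted *p* (9.09%, beside 5.57% lower of all genes). *Slc10a3*, whose controls differed over 2-fold, was 5.78 and 15.1 CPM in CAF-vec and 18.2, 20.04 and 19.3 CPM in CAF-200 (limma, log2 fold-change 0.99, adjusted *p* = 0.0905). Reads of *Slc10a3* may be shared with *Ubl4a* on the same strand.

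The controls limit these comparisons more than the CAF-200 samples do. The SD of the log2 difference over the members was 0.437 for the pair of controls and 0.145 to 0.186 for the pairs within CAF-200, as over all genes (0.490 and 0.192 to 0.204). On the log2(CPM + 0.5) scale, 27 members differed over 1.5-fold between the CAF-vec samples, 14 higher in CAF-vec 1 and 13 higher in CAF-vec 2, and 5 over 2-fold, against 0 to 3 over 1.5-fold between CAF-200 samples. Of the 165 members, 102 were nearer to the CAF-200 mean in CAF-vec 2 than in CAF-vec 1 (61.8%, beside 64.7% of all genes).

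**Figure D5:**
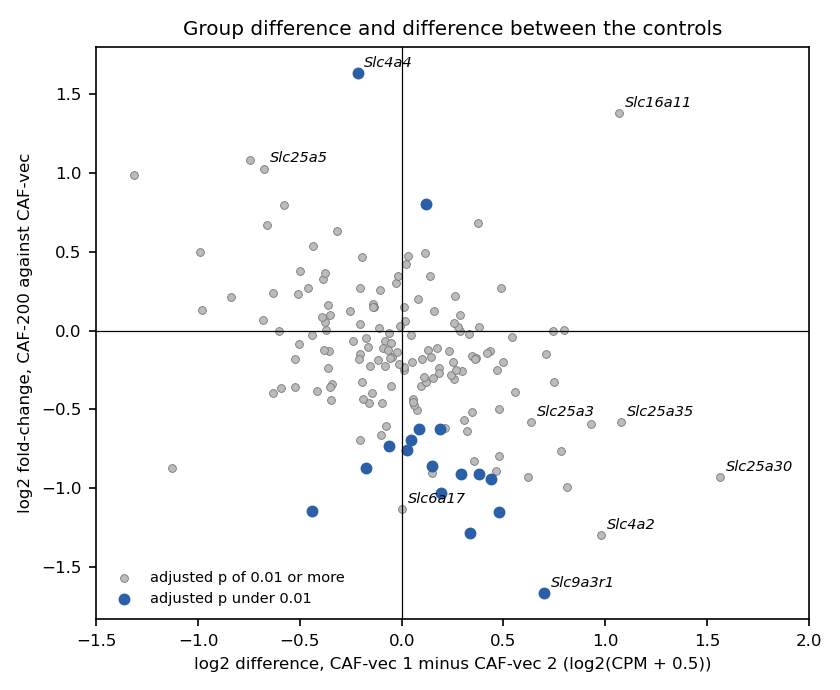
Log2 difference between the controls (CAF-vec 1 minus CAF-vec 2, horizontal axis) and log2 fold-change (CAF-200 against CAF-vec, vertical axis) of the 165 members, both on log2(CPM + 0.5), with blue points for an adjusted *p* under 0.01. The blue points lie within 1 of 0 on the horizontal axis, while *Slc25a30* and *Slc16a11*, which did not pass, lie beyond 1. The difference between the controls is part of the spread that the test uses, so this pattern follows in part from the test.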

How the data were processed

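Stranded mRNA libraries of 5 samples of murine lung CAFs were made. As deposited, the authors' 1 table holds normalized CPM, named for TMM, with columns that sum to between 999956 and 1000111. The submitters' processing notes name FastQC, cutadapt, Trimmomatic, STAR, RSEM and edgeR with GRCm38 and mm10, without versions or roles. Whole reads could not be recovered (27.8 to 78.7% of low values were whole within 0.05 of a read), so no count test was run and the depth, and with it the counting error, is unknown. All 5 columns were used (0 were left out), and groups came from the sample titles.

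Genes needed 0.5 CPM in 2 or more samples, which left 12175. Their log2(CPM + 0.5) values were compared with limma 3.58.1 in R 4.3.3 (eBayes with a variance trend), with Benjamini-Hochberg adjustment over all of them. On simulated data of 12175 genes with 200 changed by 2 on the log2 scale, a median of 74.8% was recovered over 20 runs, with at most 2 false calls. The simulated noise was normal with the same SD in both groups, whereas the real controls differed more than the CAF-200 samples did. No member changed by as much as 2 (-1.66 to 1.63), and the recovery of smaller changes was not simulated. Symbols, coordinates and 3′-UTRs were taken from the GENCODE M21 annotation of GRCm38, in which 21795 of 21835 Ensembl identifiers matched, and miRNAs from RefSeq.

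Members, substrate groups, marker lists and gene lists were chosen with earlier results of these data known. Named genes were the members past both thresholds, the top member per kilobase of each group, 20 well-studied transporters, the neighbours of the 2 CPM threshold and related transport genes past both thresholds. Others were chosen after their values were seen. Some items of these lists are not reported here. The labels and the study's methods differ on the RNA kit and the vector, and the methods speak of triplicates where 2 CAF-vec samples were analysed here. The labels were followed. Tables were handled in Python 3.11.15 with numpy 2.4.6 and pandas 2.3.3, ratios tested with SciPy 1.17.1, and figures drawn with matplotlib 3.10.9.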

Additional observations from a re-analysis of the deposited data

How the results depend on the processing

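Main counts were 5 members lower and 1 higher past both thresholds, and 15 and 2 at the adjusted *p*. Lower past both were 2 without a filter, 3 with centring, 15 with a log2 fold-change beyond 0.5 and 3 among members at 5 CPM or more. Higher past both were 0 with at least 1 CPM in every sample, at 5 CPM or more, or at 2 CPM in each group, 4 at an adjusted *p* under 0.05 and 2 beyond 0.5. At the adjusted *p*, 8 were lower without a filter and 37 under 0.05. Higher there were 1 without a filter, at 1 CPM in every sample, at 5 CPM or more or at 2 CPM in each group, 5 with quantile normalization, 6 with centring and 12 under 0.05. Leaving out 1 sample gave 0 to 18 lower and 0 to 6 higher past both thresholds, 0 to 51 and 0 to 23 at the adjusted *p*, and 0 to 9 and 0 to 4 of the related genes, 2 of which were higher with quantile normalization. The cause of these changes was not tested. The labels do not say whether same-numbered samples belong together. Their correlations, after centring each gene within its group, were 0.249 and 0.134 in 2 pairs. These are not independent, as the 2 centred CAF-vec samples mirror each other, so they cannot decide whether the numbers mark pairs. With the replicate number as a block, 1 member (*Slc9a3r1*) was lower and 0 higher by either rule, and 1 related gene was lower.

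Directions turned for *Slc11a2* (-0.0778 to 0.179 with 1 sample left out), *Slc16a13* (0.0754 with quantile normalization, 0.075 with centring, -0.186 to 0.143 with 1 sample left out), *Slc19a1* (-0.36 to 0.00152 with 1 sample left out), *Slc2a1* (0.0791 with quantile normalization, 0.0842 with centring, -0.0469 to 0.0193 with 1 sample left out), *Slc3a2* (-0.335 to 0.0131 with 1 sample left out) and *Slc6a6* (0.0314 with quantile normalization, 0.028 with centring), none of which passed the test with all samples. Dropping the 4 members that are no carriers, an alternative chosen after seeing the data, left 4 lower and 1 higher, and 14 and 2 at the adjusted *p*. A count test (edgeR), planned only for the case that whole reads could be recovered, was not run.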

Other observations

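Other transport genes, from a list of solute carriers without an *Slc* symbol, Slco carriers, chaperones of the lactate transporters, sodium-potassium ATPase subunits and ATP-binding cassette (ABC) transporters, had 60 genes tested, with 6 lower and 1 higher past both thresholds (10.0% and 1.67%, beside 2.35% and 2.37% of all genes tested). Of 28 solute carriers with other symbols none was called. At the adjusted *p* alone 3 were lower (10.7%, beside 5.57% of all genes), the lysosomal carrier *Spns1* (log2 fold-change -0.85), the cholesterol transporter *Npc1* (-0.71) and the mitochondrial carrier *Sfxn3* (-0.60), named after their values were seen. None of 2 Slco carriers and 2 chaperones passed.

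The sodium-potassium ATPase sets the sodium gradient that many solute carriers use. *Atp1b1*, its beta subunit, was 512 and 380.1 CPM in CAF-vec and 193, 203 and 187 CPM in CAF-200 (limma, log2 fold-change -1.18, adjusted *p* = 0.00551). Its regulator *Fxyd1* fell as well (-1.59), while the regulator *Fxyd5* was higher at the adjusted *p* but within the fold threshold (0.87). Of 23 ABC transporters 4 were lower (17.4%, beside 2.35% of all genes). *Abca1*, which exports cholesterol, was 25.6 and 23.0 CPM in CAF-vec and 9.58, 9.63 and 8.35 CPM in CAF-200 (limma, log2 fold-change -1.36, adjusted *p* = 0.00268), and *Abca7*, *Abca13* and *Abcc5* fell with -1.62, -1.18 and -1.02. *Abca13* passed the filter for testing only through CAF-vec, where it was higher. With centring *Abcc5* lay within the fold threshold, as did *Abca13* with 1 in place of 0.5 added to the CPM. The 1 higher was the efflux pump *Abcg2*, at 17.9 and 15.6 CPM in CAF-vec and 53.0, 55.3 and 54.9 CPM in CAF-200 (limma, log2 fold-change 1.67, adjusted *p* = 0.00127), and the groups did not overlap.

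Below the level for membership lay 206 *Slc* genes, of which 27 were tested, with 1 lower and 1 higher past both thresholds (beside 2.35% and 2.37% of all genes). The lower was the vesicular glutamate transporter *Slc17a6* (-1.02, adjusted *p* = 0.00771, limma), and the higher the sodium-calcium exchanger *Slc8a1*, at 0.0767 and 0.0591 CPM in CAF-vec and 1.42, 1.70 and 1.73 CPM in CAF-200 (limma, log2 fold-change 1.90, adjusted *p* = 0.00254). Each passed the filter for testing only through the group where it was higher, CAF-vec for *Slc17a6* and CAF-200 for *Slc8a1*, so these calls are not independent of the filter.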
